A study of Brassica napus with 9 samples.

Results

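BnaC07g18750D and BnaA06g40240D are the pair of rapeseed genes that the study's annotation matched to the Arabidopsis gene AT5G45890, known as SENESCENCE-ASSOCIATED GENE 12 (SAG12). They are 2 of the 91830 genes in the deposited count table. They were chosen by their normalized counts, for the large difference between 8 and 25 days after flowering (DAF), so that difference is described here and not tested. The prefixes of their identifiers place the first on chromosome C07 and the second on chromosome A06, which belong to the C and A subgenomes of the allotetraploid Brassica napus.

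SAG12 of Arabidopsis encodes a papain-type cysteine protease, an enzyme that cuts proteins with a cysteine in its active site and that acts in an acidic compartment such as the vacuole. In Arabidopsis it is best known as a marker of leaf senescence, since its transcript is scarce in young leaves and plentiful in yellowing ones. Cysteine proteases of this type break down proteins when cells age or die, and the amino acids released can be moved to growing organs such as seeds.

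The samples were whole pods, that is the pod wall with the developing seeds inside, of greenhouse plants collected at 8, 25 and 45 DAF. Wild-type Youngsan was the control. The other 2 lines were homozygous T4 transgenic plants in the Youngsan background that carried CpFatB4 or CpFatB5, acyl-ACP thioesterase genes of Cuphea paucipetala, under a seed-specific Napin promoter. Stages are counted from flowering in the study's methods and from fertilization in the sample labels. RNA was taken from 1 or 2 pods, and RNA of 3 preparations was pooled for each library, so that every line and stage had 1 library (n = 1) and the 9 libraries held no replicate. Each library had 2 columns of counts, treated here as repeat measurements of that library. Both columns together held between 38677752 and 88259440 counts per library, and the log2 ratio of the columns had an SD of 0.0474 to 0.0675 over genes with at least 1000 normalized counts. Intervals below are 95% Wilson intervals and cover counting error only, not the differences between plants.

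Transcripts of both genes were close to undetected in pods at 8 DAF, very abundant at 25 DAF and intermediate at 45 DAF, in all 3 lines. In Youngsan, the counts of BnaC07g18750D in the 2 columns were 7 and 5 at 8 DAF, 64530 and 63891 at 25 DAF, and 851 and 848 at 45 DAF. Those of BnaA06g40240D were 9 and 6 at 8 DAF, 65399 and 65433 at 25 DAF, and 875 and 840 at 45 DAF. The columns of a library thus differed far less than the stages did, and the genes had nearly the same counts at each stage.

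The same order was found in the transgenic lines. In CpFatB4, BnaC07g18750D had counts of 27 and 25 at 8 DAF, 37749 and 37288 at 25 DAF, and 474 and 477 at 45 DAF, and BnaA06g40240D had 31 and 26, then 38485 and 38714, then 498 and 462. In CpFatB5, BnaC07g18750D had 8 and 9 at 8 DAF, 43960 and 43270 at 25 DAF, and 472 and 495 at 45 DAF, and BnaA06g40240D had 7 and 7, then 45255 and 44885, then 498 and 462. The lowest value of every column in the table is 1, so a count of 7 may stand for 6 reads.

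As a share of all counts, the pair of genes took 0.294% in Youngsan at 25 DAF, 0.184% in CpFatB4 and 0.212% in CpFatB5. At 45 DAF the shares were 0.00491%, 0.00290% and 0.00498% in the same order of lines. At that stage the most counted genes, equal in number but picked within each library, took 9.15% of counts in Youngsan, 38.7% in CpFatB4 and 18.1% in CpFatB5. The 45 DAF shares of the pair are therefore not directly comparable between lines. At 8 DAF they were 3.57e-05% (2.45e-05% to 5.19e-05%) in Youngsan, 0.000148% (0.000123% to 0.000179%) in CpFatB4 and 4.88e-05% (3.44e-05% to 6.93e-05%) in CpFatB5. These intervals treat the counts of both columns and both genes as separate, and are too narrow if they repeat the same reads. Because whole pods were used, more cells that carry the transcript and more transcript per cell cannot be told apart, and neither can pod wall and seed.

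**Figure D1:**
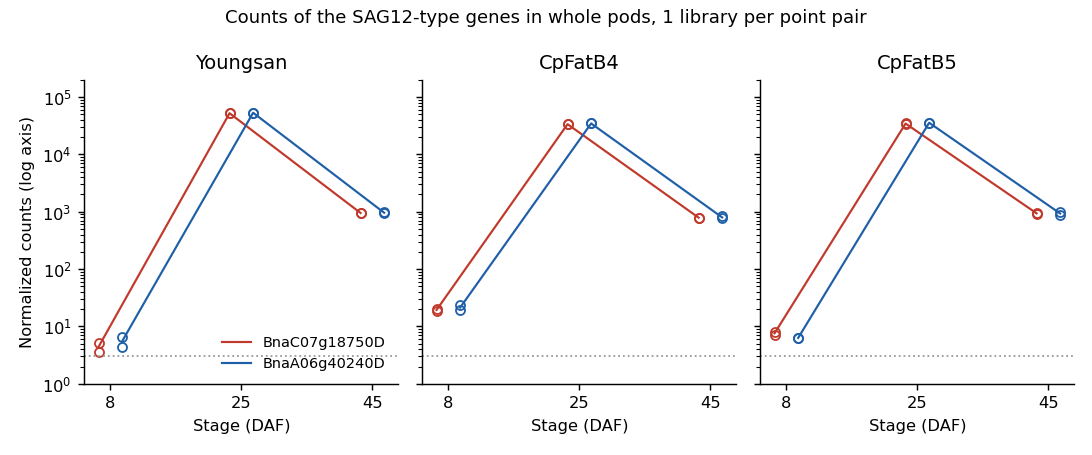
Normalized counts (log axis) of BnaC07g18750D and BnaA06g40240D by stage in DAF, 1 panel per line; open circles are the 2 columns of a library, lines join their means, and the dotted line marks the floor of 3 counts. Both genes lie between 4.4 and 21.3 at 8 DAF, between 33605 and 53134 at 25 DAF and between 789 and 960 at 45 DAF.

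After scaling with size factors, BnaC07g18750D had 52155 normalized counts at 25 DAF in Youngsan, 34423 in CpFatB5 and 33605 in CpFatB4. Next in its order of levels came the 45 DAF libraries, with 951 in Youngsan, 938 in CpFatB5 and 789 in CpFatB4, and last the 8 DAF libraries, with 19.4 in CpFatB4, 7.6 in CpFatB5 and 4.4 in Youngsan. BnaA06g40240D had 53134, 35571 and 34573 at 25 DAF in Youngsan, CpFatB5 and CpFatB4. Its levels at 45 DAF were 960, 931 and 796, and those at 8 DAF were 5.5, 6.3 and 21.3 in the same order of lines. The levels at 25 DAF were therefore separated from all others by a wide gap. Within 2 pairs of neighbours in the order of each gene, Youngsan and CpFatB5 at 45 DAF and the same lines at 8 DAF, the counting intervals of the difference included 0. CpFatB5 and CpFatB4 at 25 DAF differed by 0.03 (0.015 to 0.055) and 0.04 (0.021 to 0.061) on the log2 scale, with intervals that excluded 0. Both values were less than the spread (SD) between the paired columns of a library, taken over genes with at least 1000 normalized counts. That spread includes genes with far fewer counts than the pair. From the first and second column alone, the differences were 0.037 and 0.033 for BnaC07g18750D, and 0.051 and 0.031 for BnaA06g40240D.

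From 8 to 25 DAF, the log2 difference of BnaC07g18750D was 13.53 (12.40 to 14.66) in Youngsan, 12.14 (11.16 to 13.12) in CpFatB5 and 10.76 (10.20 to 11.31) in CpFatB4. For BnaA06g40240D it was 13.23, 12.47 and 10.66 in these lines. The smaller difference in CpFatB4 accompanied its higher counts at 8 DAF together with a lower level than Youngsan at 25 DAF. Among the genes with a mean of at least 1000 normalized counts in the libraries compared, the pair stood 1st and 3rd of 5997 in Youngsan by this difference, 3rd and 1st of 5817 in CpFatB5, but 52nd and 54th of 5886 in CpFatB4. Both genes passed a rule for a differentially expressed gene (DEG) based on the study's. It asks for a log2 difference of at least 1 with that mean, without the study's test of significance. The same rule called 19.2% of the genes higher at 25 DAF in Youngsan, 21.2% in CpFatB4 and 18.6% in CpFatB5.

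From 25 to 45 DAF, both genes were much lower in every line. BnaC07g18750D differed by -5.78 (-5.87 to -5.68) in Youngsan, -5.41 (-5.54 to -5.28) in CpFatB4 and -5.20 (-5.33 to -5.07) in CpFatB5, which are 54.8-, 42.6- and 36.7-fold lower levels. BnaA06g40240D differed by -5.79, -5.44 and -5.26. These comparisons use the 25 DAF libraries of the earlier ones and are not independent of them. The rule called 2 of 2 genes lower in each line, beside 21.1% of all genes in Youngsan, 15.5% in CpFatB4 and 32.8% in CpFatB5. Since the pair passed the minimum through the 25 DAF levels that chose it, nothing is read from this count. The decline left a remainder, since the levels at 45 DAF were still over the 8 DAF levels in every line. Of the 6084 genes with a mean of at least 1000 over the 9 libraries, 300 had their highest stage at 25 DAF, by at least 1 on the log2 scale on both sides, in all 3 lines.

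The comparison of lines asks whether the lines differed at a stage. Each transgene was studied in a single line, so the transgene cannot be told apart from its insertion site or the line's history. At 25 DAF, both genes were lower in the transgenic lines than in Youngsan by a modest amount. In CpFatB4, the log2 difference was -0.63 for BnaC07g18750D and -0.62 for BnaA06g40240D, or 1.55- and 1.54-fold lower levels. In CpFatB5, these differences were -0.60 (-0.62 to -0.58) and -0.58 (-0.60 to -0.56), or 1.52- and 1.49-fold lower levels. Between CpFatB5 and CpFatB4 they were 0.03 and 0.04. None of these reached the DEG rule, so 0 of 2 genes were called, beside 0.324% of genes called lower and 0.278% higher in CpFatB4 against Youngsan, 1.11% and 0.0784% in CpFatB5 against Youngsan, and 1.35% and 0.109% in CpFatB5 against CpFatB4.

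Set against all genes, the differences from Youngsan at 25 DAF lay in the lower tail. In CpFatB4, 56 of 6479 genes were at least as low as BnaC07g18750D, with an SD over all genes of 0.21, and in CpFatB5, 138 of 6380 were, with an SD of 0.30. With 1 library a line, differences between pods of the same line were not measured, and no test can be given for a single stage. Some seed genes also differed between these libraries. For 6 storage protein genes of seed filling, napins and cruciferins that the study named from these samples, the median log2 difference from Youngsan was 0.41 in CpFatB4 and -1.22 in CpFatB5, beside medians over all genes of 0.03 and -0.07. In CpFatB4 the napins were near Youngsan (0.07 to 0.12) and the cruciferins were higher (0.70 to 1.54). In CpFatB5 the napins (-0.65 to -0.48) and the cruciferins (-1.86 to -1.80) were lower. The summed level of the 6 genes was 905300 normalized counts in Youngsan, 1246000 in CpFatB4 and 507700 in CpFatB5. The cruciferins thus differed in opposite directions where the SAG12-type genes did not. Seed coat laccase genes (matched to AT5G48100) differed little, with medians of -0.0006 in CpFatB4 and 0.13 in CpFatB5. The part of seed stage in the line differences was not tested.

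**Figure D2:**
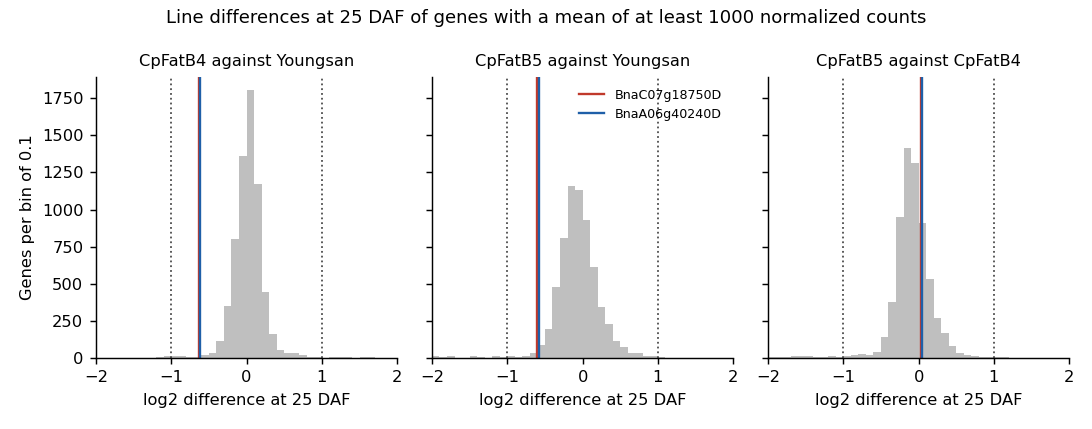
Number of genes per bin of 0.1 (bars) by the log2 difference between lines at 25 DAF, for genes with a mean of at least 1000 normalized counts; coloured lines mark BnaC07g18750D and BnaA06g40240D, dotted lines the DEG limits of -1 and 1, and genes beyond -2 and 2 are not drawn. Both genes stand in the lower tail against Youngsan, at -0.63 and -0.62 in CpFatB4 and at -0.60 and -0.58 in CpFatB5, and near 0 between the transgenic lines.

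At 8 DAF, BnaC07g18750D was higher in CpFatB4 than in Youngsan by a log2 difference of 2.14 (0.90 to 3.38) and BnaA06g40240D by 1.95 (0.85 to 3.06). The difference rests on 25 to 31 counts per column in CpFatB4 and 5 to 9 in Youngsan, and both levels lie far under the minimum of the DEG rule. Between CpFatB5 and Youngsan the differences were 0.79 and 0.19 with intervals that included 0, which was not a detectable difference at this depth. CpFatB5 was lower than CpFatB4 by -1.35 for BnaC07g18750D and -1.76 for BnaA06g40240D.

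At 45 DAF the differences of the pair between lines were small after size-factor scaling, but their size depended on the scaling. The log2 difference from Youngsan was -0.27 for each gene in CpFatB4, and -0.02 and -0.04 in CpFatB5 with intervals that included 0. Their mean levels were just under the minimum of the DEG rule. Among genes past it, the log2 differences from Youngsan at this stage had a median of -0.26 in CpFatB4 and -0.45 in CpFatB5. Their SD was 0.90 in CpFatB4 and 1.07 in CpFatB5. In CpFatB4, 3193 of 6459 of these genes were at or below the pair's mean difference. In CpFatB5, 1048 of 6107 were at or above it. By the rule, 7.57% and 4.01% of genes were called higher and 12.6% and 12.8% lower. When libraries were scaled on highly counted genes only (mean of 1000 or more), the mean difference of the pair in CpFatB5 was 0.44 and no longer near 0. Scaled on total counts, it was -0.76 in CpFatB4 against Youngsan and 0.78 in CpFatB5 against CpFatB4, in place of -0.27 and 0.24.

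The 45 DAF pods of the lines also differed in genes of late seed maturation. The 6 genes of this list, among them the gene pairs matched to a LEA protein (AT2G41280) and to a seed maturation protein (AT3G22490), had a summed level of 137400 in Youngsan, 28930 in CpFatB4 and 178700 in CpFatB5. The storage protein genes had 853900, 7147000 and 329800 in the same order of lines. At 25 DAF the late maturation genes summed to 15.8, 22.4 and 20.1, so they were nearly silent when the SAG12-type genes were highest. Whether the seed stage of the pods had a part in the levels at 45 DAF was not tested.

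A line effect common to the 3 stages was fitted with limma on all 9 libraries, with the stage as a block. For BnaC07g18750D it was -0.02 (95% interval -1.13 to 1.10) for CpFatB4 against Youngsan, -0.10 (-1.23 to 1.02) for CpFatB5 against Youngsan and -0.09 (-1.21 to 1.03) for CpFatB5 against CpFatB4. For BnaA06g40240D it was -0.03, -0.19 and -0.16. The limma adjusted p-values over 73401 genes were between 0.942 and 0.995, and 0 of 2 genes passed in any contrast. The background was 0.0% of genes in the first contrast, 0.00817% in the second and 0.00681% in the third. In the first contrast no gene passed with limma's voom weights or with its trend fit. Genes with an unadjusted limma p under 0.05 numbered 4890, 3972 and 2513 in the 3 contrasts with voom weights. With the trend fit they numbered 4062, 3451 and 2524. Without any line effect, a share of about 0.05 of the 73401 genes would lie under that limit. For BnaA06g40240D the upper limits were 0.92 for CpFatB5 against Youngsan and 0.94 for CpFatB5 against CpFatB4, and all other limits of the pair's intervals lay beyond -1 or 1, a 2-fold difference. Intervals this wide do not show that the lines were alike.

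The pair of genes was counted almost equally. The ratio of the counts of BnaA06g40240D to those of BnaC07g18750D was between 1.01 and 1.04 in the 6 columns at 25 DAF, between 0.933 and 1.06 at 45 DAF and between 0.778 and 1.29 at 8 DAF, where the counts are few. This is a ratio of counts and not per length. Reads were mapped to coding sequences, and how reads that match several sequences were counted is not given in the sources used here. The counts of both columns together exceeded the clean reads that the study reported for each library. Whether the same reads were counted for both genes was not tested. The split between near-identical copies is therefore uncertain, and the likeness of the pair need not come from separate reads. The centred profiles of the pair differed by a root mean square of 0.15 on the log2 scale. Of the 6084 genes, 94.5% had some other gene at least this near, with a median of 0.0215, so such likeness is common in this table.

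Genes with the next most similar profiles were ordered by the root mean square difference of their centred log2 levels from the mean profile of the pair, over the 9 libraries and among 6082 genes. The 10 nearest were at 0.91 to 1.40, well beyond the distance within the pair, with Pearson correlations of 0.966 to 0.997 as a description. The nearest was BnaC04g04060D, followed by BnaAnng08030D and BnaC02g38340D, a pair matched to the laccase gene AT5G48100. In Arabidopsis this gene is TRANSPARENT TESTA 10, whose product oxidizes flavonoids in the seed coat. For BnaC02g38340D, Youngsan had 1.1, 8187 and 401 normalized counts at 8, 25 and 45 DAF, CpFatB4 had 1.5, 8149 and 1020, and CpFatB5 had 2.2, 8935 and 181. It shared the peak at 25 DAF, but its levels at 45 DAF differed more between lines than those of the SAG12-type genes.

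BnaC04g50170D, BnaA05g04610D, BnaA03g21140D and BnaC03g25220D came next, and like BnaC04g04060D they have no description in the sources used here. They were followed by BnaC02g15450D and BnaA02g11140D, matched to a GMC oxidoreductase (AT3G56060), and BnaC08g43960D, matched to a glycine-rich protein (AT1G04660). BnaC02g15450D had 9750, 8737 and 7783 normalized counts at 25 DAF in Youngsan, CpFatB4 and CpFatB5, and 162, 772 and 37.8 at 45 DAF. The 45 DAF level of this gene thus spread widely over the lines.

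**Figure D3:**
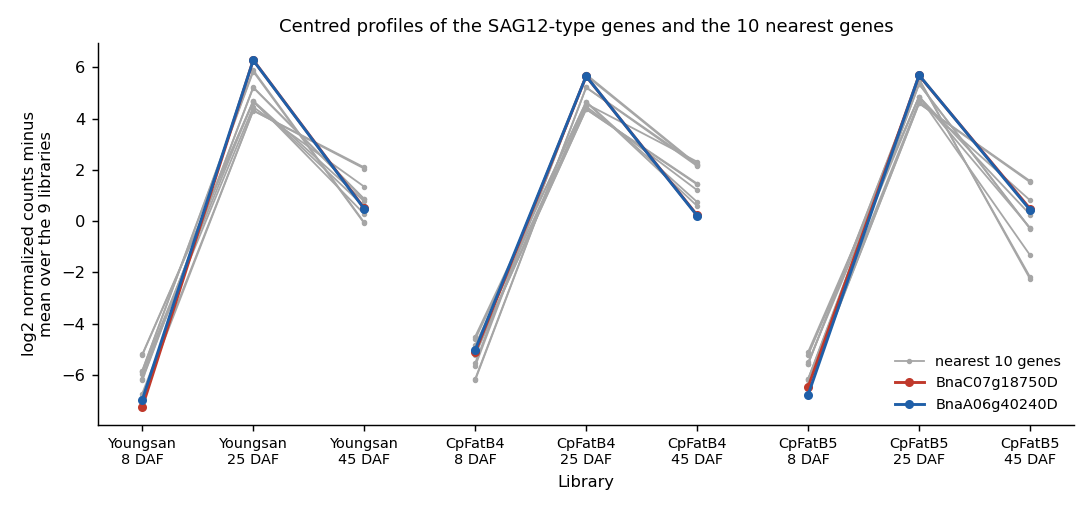
Log2 normalized counts minus the gene's mean over the 9 libraries (vertical axis) by library, for BnaC07g18750D and BnaA06g40240D (coloured) and the 10 genes with the nearest profiles (grey), with the stages of a line joined. All peak at 25 DAF in each line, and the grey lines spread most at 45 DAF in CpFatB5.

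In some of the line comparisons the pair lay outside the range of these neighbours in profile, as a description with no test. The pair's 25 DAF levels were part of its choice. At 25 DAF the log2 differences of the 10 genes were between -0.16 and 0.05 for CpFatB4 against Youngsan and between -0.34 and 0.28 for CpFatB5 against Youngsan, and the mean of the pair was at -0.63 and -0.59, below all of them. At 45 DAF, 0 of the 10 were higher in CpFatB5 than in Youngsan, with differences from -2.20 to -0.52, whereas the pair was at -0.03. Lower levels in CpFatB5 were common there, with a median of -0.45 over the 6107 genes past the minimum of the DEG rule. Of these, 1048 were at or above the pair's mean difference. In CpFatB4 against Youngsan at 45 DAF the 10 genes ran from -0.63 to 2.26, with the pair at -0.27. At 8 DAF, 7 of the 10 were higher in CpFatB4 than in Youngsan, by up to 1.66, and the other 3 were under the floor in both, beside 2.05 for the pair. The 5260 genes past the minimum had a median of -0.02 in that comparison, but the 10 genes and the pair lay far under the minimum.

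**Figure D4:**
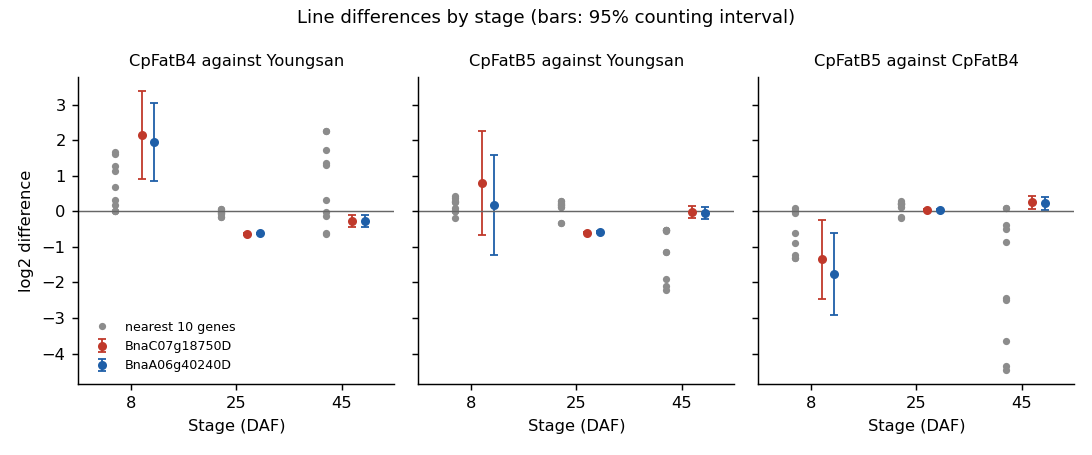
Log2 difference between lines (vertical axis) by stage in DAF, 1 panel per pair of lines, for BnaC07g18750D and BnaA06g40240D (coloured, with 95% counting intervals) and the 10 genes with the nearest profiles (grey points). The SAG12-type genes lie below the grey points at 25 DAF against Youngsan and above them at 45 DAF in CpFatB5 against Youngsan.

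The pair of dirigent-like genes matched to AT4G23690, BnaA03g38820D and BnaC03g45710D, also peaked at 25 DAF but did not keep a remainder. Dirigent proteins steer the coupling of phenolic radicals. Youngsan had a summed level of 3.67, 8447 and 7.84 normalized counts at 8, 25 and 45 DAF, CpFatB4 one of 9.72, 8258 and 3.32, and CpFatB5 one of 5.84, 8968 and 15.5. At 45 DAF they were therefore back near their 8 DAF level, while the SAG12-type genes stayed between 789 and 960. The remainder was not particular to the SAG12-type genes. All of the 10 genes nearest to them in profile also stayed over their 8 DAF levels in every line. These 10 were picked by likeness over all 9 libraries, so their remainder was largely set by the choice. Their 45 DAF levels ran from 35.9 (BnaA02g11140D in CpFatB5) to 1620 (BnaC03g25220D in Youngsan).

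Genes with neighbouring identifiers did not reach comparable levels at 25 DAF. Within 3 places on either side of each gene in the numbering of the reference, 12 genes were listed, and 0 of them reached 1000 normalized counts in any library. The highest was BnaA06g40260D with 800 normalized counts at 8 DAF in Youngsan and 685 at 25 DAF. BnaC07g18740D, next to BnaC07g18750D, had 91.3, 13.4 and 3.36 normalized counts at 8, 25 and 45 DAF in Youngsan, the opposite course from 8 to 25 DAF. BnaC07g18760D, on its other side, had 0.734, 1.22 and 1.12, under the floor of 3. The largest increase from 8 to 25 DAF among the 12 was 2.19 on the log2 scale, in BnaC07g18770D in Youngsan. This gene, of unknown function here, had 6.25, 28.4 and 11.8 normalized counts at 8, 25 and 45 DAF there, so its highest stage was also 25 DAF, at a far lower level.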

How the data were processed

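Counts of whole-pod RNA from 9 libraries were used. After trimming with SolexaQA, the authors mapped reads with Bowtie2 (2.1.0) to the Genoscope coding sequences of B. napus with up to 2 mismatches, and deposited raw counts of 91830 genes in 18 columns, a pair for each library. Their unit is recorded as other because commas stand between digit groups. Their lowest value is 1, taken as 1 added to each count. A further 13 deposited columns, recorded as a score, are rounded values from normalization by the authors in DESeq. They were only compared with the values here, and lay within 0.500 of them. The meaning of the paired columns is not given in the sources used here.

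Size factors were medians of ratios over the 18 columns (0.513 to 1.37), and a library's level is the mean of its 2 normalized columns. Levels under 3 were set to 3 before log2 differences were taken. The DEG rule was that of the study's methods, a log2 difference of at least 1 or at most -1 and a mean of at least 1000, without its significance test. Line effects were fitted with limma (3.58.1, voom, R 4.3.3) on summed counts with TMM scaling (trims of 30 and 5 percent), for genes with the equivalent of 10 counts in at least 3 libraries, with Benjamini-Hochberg adjustment at 0.05. The residual of this fit is how line differences vary with stage. The scripts were tested on simulated data. Python 3.11.15 was used with scipy 1.17.1, numpy 2.4.6, matplotlib 3.10.9 and pandas 2.3.3.

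Genes named are the pair, the 10 nearest profiles, genes within 3 identifier places (those given with values were picked after their values were seen) and fixed lists. The pair and the lists were chosen with earlier results of these data known. Lists of other cysteine proteases, protease inhibitors, senescence genes and green-tissue genes had been planned and were left out, since the reference table gives no descriptions and matched 0 of the 12 genes searched. Alternatives were total-count scaling, scaling on highly counted genes only (mean of 1000 or more), either column alone, a floor of 1, the added 1 removed, minima of 200 and 10, other limma settings, each library left out, and, chosen after seeing the data, limma on 25 and 45 DAF only.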

Additional observations from a re-analysis of the deposited data

Results flagged for a closer look

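The difference between CpFatB4 and Youngsan changed direction with the stage, with counting intervals on opposite sides of 0. The mean log2 difference of the pair was 2.05 (1.21 to 2.88) at 8 DAF, but -0.63 (-0.64 to -0.61) at 25 DAF and -0.27 (-0.38 to -0.16) at 45 DAF. Between CpFatB5 and CpFatB4 it was -1.55 (-2.35 to -0.76) at 8 DAF, 0.04 (0.02 to 0.05) at 25 DAF and 0.24 (0.11 to 0.37) at 45 DAF. The intervals of the mean treat the reads of both genes as separate, and are too narrow if reads were shared. The intervals of each gene alone lay on the same sides of 0. Every library of these comparisons stands alone for its line and stage, so the change of direction between stages was not tested. The 8 DAF values rest on 5 to 31 counts per gene and column.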

How the results depend on the processing

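Of the 270 log2 differences recomputed (each gene and their mean), 221 stayed within their counting interval and 49 left it. None with an interval clear of 0 changed sign. Under total-count scaling the pair's mean difference from 25 to 45 DAF was -5.90, -5.98 and -5.41 in Youngsan, CpFatB4 and CpFatB5, and from 8 to 25 DAF in CpFatB4 it was 10.28. At 25 DAF it was -0.68 in CpFatB4 and -0.47 in CpFatB5 against Youngsan and 0.21 in CpFatB5 against CpFatB4, and at 45 DAF -0.76 in CpFatB4 against Youngsan and 0.78 in CpFatB5 against CpFatB4. When libraries were scaled on highly counted genes only (mean of 1000 or more), the difference from 25 to 45 DAF was -5.54, -5.12 and -4.55 in Youngsan, CpFatB4 and CpFatB5. At 25 DAF the values were -0.67, -0.55 and 0.12 in the same order of comparisons, and at 45 DAF 0.44 in CpFatB5 against Youngsan and 0.69 in CpFatB5 against CpFatB4. These scalings also moved the median of all genes at 45 DAF, from -0.26 to -0.75 in CpFatB4 against Youngsan under total counts and from -0.45 to 0.02 in CpFatB5 against Youngsan under the other.

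By Pearson correlation, 5 of the 10 reported nearest genes were among the 10 nearest. Genes called by the DEG rule were 2.70 to 4.63 times as many with a minimum of 200, and 9.11 to 31.6 times with a minimum of 10. Line comparisons under the scaling on highly counted genes gave 0.436 to 1.23 times as many.

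The limma effects stayed uncalled in all 15 alternatives (adjusted p 0.806 to 1.00), and 22 of 90 had the other sign. For CpFatB4 against Youngsan the trend fit gave 0.41 for BnaC07g18750D and 0.36 for BnaA06g40240D, and for CpFatB5 against Youngsan 0.050 for BnaC07g18750D. For CpFatB5 against CpFatB4, total-count scaling gave 0.21 and 0.15, and the 25 and 45 DAF libraries alone 0.15 and 0.14. With 1 library left out, the effects of BnaC07g18750D ran from -0.33 to 0.28, -0.38 to 0.18 and -0.32 to 0.23 for CpFatB4 and CpFatB5 against Youngsan and CpFatB5 against CpFatB4, and those of BnaA06g40240D from -0.36 to 0.24, -0.44 to 0.055 and -0.41 to 0.17. Positive values came from leaving out a library of Youngsan at 25 or 45 DAF, of CpFatB4 at any stage or of CpFatB5 at 25 DAF. The cause was not tested. No paired analysis was possible because each line and stage has 1 library, beyond the block for stage that the limma fit already holds. Differences between pods of a line were not measured, and the 8 DAF levels are limited by counts.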
